A study of Mus musculus with 12 samples.

Results

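Lipopolysaccharide (LPS), the endotoxin of Gram-negative bacteria, was compared with no LPS in mouse bone marrow cultures grown without any added retinoid. The comparison holds 4 of the 12 arrays of the series, chosen by their titles: 1 control array and 1 LPS array from BALB/c mice (replicate number 1) and 1 of each from BL6 mice (replicate number 2). In every culture of the series, marrow of mice aged 6 to 8 weeks grew for 10 days with GM-CSF at 20 ng/ml, a growth factor that turns marrow progenitors into dendritic cells. LPS was used at 1 ug/ml, and the labels state no separate time at which it was added. The other 8 arrays come from cultures that also received all-trans-retinoic acid (RA, 10 nmol) or Ro41-5253 (Ro, 100 nmol), an antagonist of the retinoic acid receptor RAR-alpha, each with and without LPS. Total RNA was hybridised to an Affymetrix array of 45101 probe sets. Such cultures are known to hold macrophages and granulocyte precursors beside dendritic cells, and the labels name no sort. Each strain and condition has 1 array, so the replicate of the comparison is the strain, and nothing in the labels says whether an array stands for 1 animal or several.

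LPS is sensed by the receptor TLR4 with its partners CD14 and MD-2. One arm of its signalling runs through the adaptor MyD88 to the transcription factor NF-kappaB and to MAP kinases, which switch on inflammatory cytokines. The other runs through TRIF to interferon beta, whose secreted protein then switches on antiviral genes in the same and neighbouring cells. In dendritic cells the signal also starts maturation: capture of antigen is given up, costimulatory molecules reach the surface, and metabolism turns towards glycolysis.

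Values are the deposited signals, which carry no detection call, and a pair of values always gives BALB/c first and BL6 second. The median signal of all probe sets was 41.8 and 31.9 on the BALB/c and BL6 control arrays but 23.1 and 21.4 on the LPS arrays, while the mean after removal of 2% at either end was 248 and 200 against 183 and 159. The LPS arrays were therefore lower in the middle of the range, and the median gene changed by -0.57 (log2) in BALB/c and -0.50 in BL6. For this reason each change below is a log2 difference, LPS minus control, relative to the median of all tested genes, with its standard error (SE) from the model. A gene was called higher or lower only when limma gave an adjusted p under 0.05 in the same direction both at the deposited scaling and after quantile normalisation, and the larger of both adjusted p-values is printed. Signals below 41.8, the highest median of the 12 arrays, are treated as background. In the text of these Results no change is given for a gene whose control or LPS mean lies there. The closing section on flagged results does print some such sizes, which depend on the added constant.

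Of 12429 tested genes 989 were higher with LPS (7.96%) and 2709 were lower (21.8%), which is 29.8% of all. Both shares depend on the scaling: higher genes made up 26.7% of those called here, 17.6% at the deposited scaling alone (1001 higher or 8.05% of all, 4686 lower or 37.7%), 42.5% after quantile normalisation alone (2027 or 16.3%, and 2738 or 22%) and 63.3% when each array was centred on its median (3137 or 25.2%, and 1817 or 14.6%). Among the called genes 483 rose by over 2 log2 units and 82 by over 4, whereas 448 fell by over 2 and 14 by over 4. Relative to the median gene 25 of the genes called lower lay above 0. The changes of the strains correlated across genes with r = 0.82 (rho = 0.781), genes not being independent replicates, and 3635 of the called genes had the same sign in both. Fewer genes were called when 1 array was left out: 659 higher and 1451 lower without the BALB/c control array, 642 and 1730 without the BL6 control array, 679 and 2145 without the BALB/c LPS array and 711 and 1809 without the BL6 LPS array. In RNA from whole cultures, fewer cells of a type and less RNA per cell cannot be told apart.

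**Figure D1:**
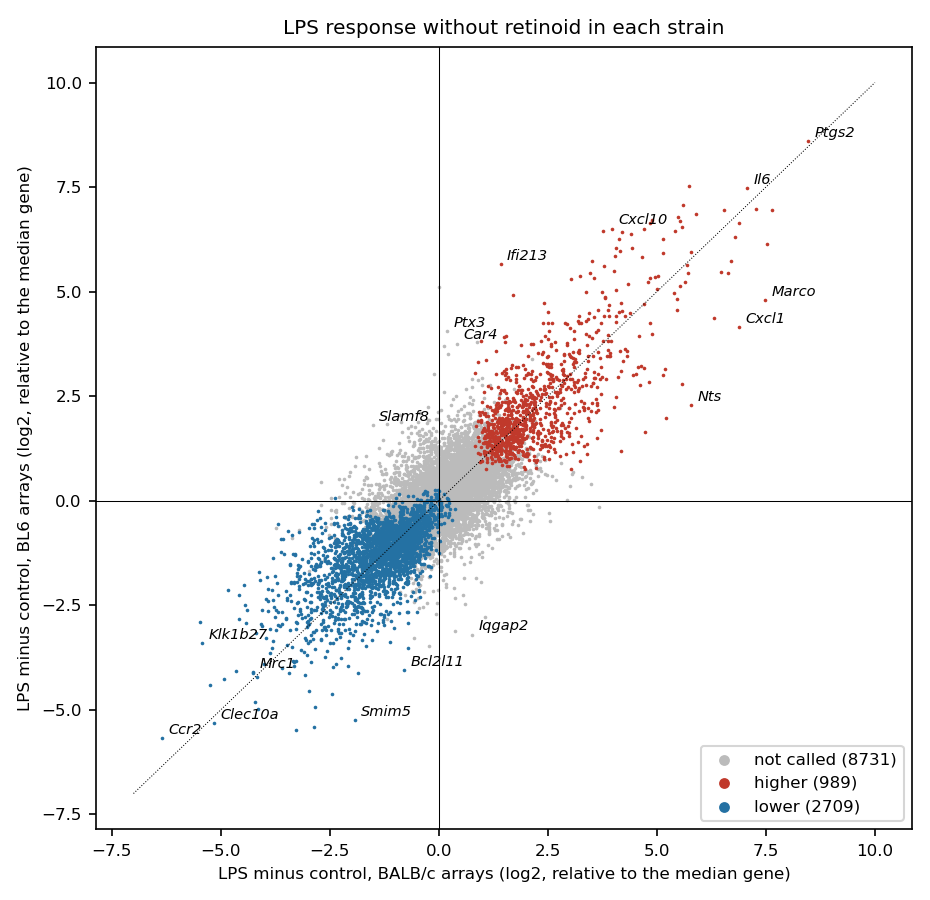
Change with LPS in the BALB/c arrays (x axis) against that in the BL6 arrays (y axis), each as log2 relative to the median gene; each point is 1 of 12429 tested genes, red for the 989 called higher, blue for the 2709 called lower and grey for the rest, with selected genes named. The points follow the dotted line of equal change (r = 0.82), and Cxcl1, Nts, Ifi213, Smim5 and Iqgap2 lie away from it; for genes with a group at background the plotted size depends on the added constant of 16.

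Cytokine genes and enzymes of inflammation were among the largest rises. Il6, a cytokine of fever and the acute phase, read 72.8 and 41.7 without and 8041 and 7299 with LPS, and its change of 7.27 ± 0.48 is a 154.5-fold difference (adjusted p = 1.01e-05). Il12b, the shared subunit of IL-12 and IL-23, read 92.4 and 246 without and 13563 and 13019 with LPS (6.83 ± 0.44, adjusted p = 4.26e-05). Inhba, the subunit of activin A, read 124 and 84.7 without and 8759 and 8839 with LPS (6.74 ± 0.35, adjusted p = 2.26e-06). For each of the 3 genes both LPS arrays lay far above both control arrays, which is likely in advance for genes picked by size. The LPS values of the strains were similar. Ptgs2, the inducible cyclooxygenase that starts prostaglandin synthesis, was at background in the control cultures at 12.7 and 6.41 and read 6833 and 6202 with LPS (adjusted p = 7.26e-07). Hilpda, a lipid droplet protein of the hypoxia response, rose by 6.76 ± 0.33. Procr, the endothelial receptor for protein C, rose by 6.06 ± 0.35, and Ms4a4c, a membrane protein of the MS4A family, by 5.80 ± 0.70. Hamp, the iron hormone hepcidin, left the background and went from 30.4 and 19.4 to 3451 and 1974 (adjusted p = 1.01e-05).

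The largest falls included receptors of monocytes. Ccr2, the chemokine receptor that brings monocytes out of the marrow, read 4572 and 4721 without and 21.98 and 50.04 with LPS, thus reaching background (adjusted p = 1.45e-05). Gda, guanine deaminase, read 5207 and 6713 without and 100.8 and 232 with LPS (-4.60 ± 0.49, adjusted p = 9.28e-05). Cd93, a C-type lectin-like receptor of myeloid progenitors and monocytes, read 1998 and 2131 without and 57.4 and 38.4 with LPS (-4.51 ± 0.42). In none of these 3 genes did the groups overlap, which is likely in advance for genes picked by the size of their fall. Ramp1, the co-receptor for the neuropeptide CGRP, fell by 4.19 ± 0.50, the myeloid receptor Cd300lb by 3.89 ± 0.53, the unnamed gene 5031439G07Rik by 3.81 ± 0.32 and Fn1, fibronectin, by 3.78 ± 0.43. Pald1 and Nfe2, the latter a transcription factor of megakaryocytes and red cell precursors, reached background, Pald1 going from 1095 and 517 to 3.80 and 1.89 and Nfe2 from 733 and 735 to 12.5 and 0.87.

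**Figure D2:**
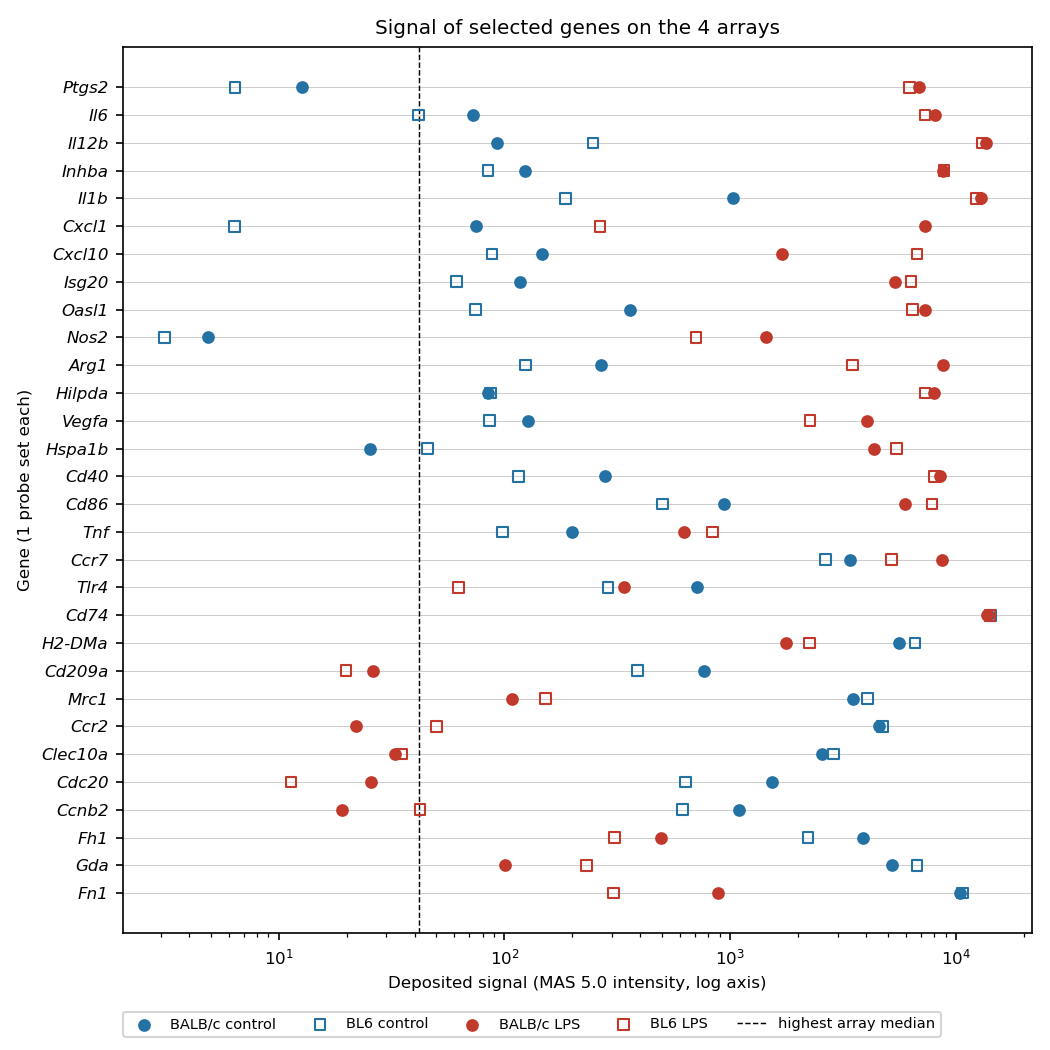
Deposited signal (x axis, log scale) of 30 genes, 1 row each, on the 4 arrays: filled circles BALB/c, open squares BL6, blue control, red LPS; the dashed line marks 41.8, the highest array median. Il6 and Ptgs2 separate the groups widely, Cd74 lies between 13713 and 14239, and Clec10a, Ccr2 and Cdc20 drop to about the dashed line.

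The list of the LPS receptor and its adaptors moved in both directions: 6 of 22 tested members were higher and 2 lower, with a median change of 0.24 (0 for all genes, by construction). Among the 6 is Acod1, an enzyme that makes itaconate and is neither a receptor nor an adaptor. Cd14, the co-receptor that hands LPS to TLR4, read 5026 and 3998 without and 14504 and 11126 with LPS and rose by 2.03 ± 0.27 (adjusted p = 0.00378). Tlr4 itself read 709 and 288 without and 338 and 62.6 with LPS and did not pass (-0.97 ± 0.47, adjusted p = 0.104). The control value of BL6 lay below the LPS value of BALB/c, so that the groups overlapped. Ly96, which encodes MD-2, did not pass either (1.45 ± 0.38, adjusted p = 0.0689). Of the kinases and adaptors Traf6 (a ubiquitin ligase) rose by 2.96 ± 0.47, Irak2 (a kinase of the MyD88 complex) by 1.66 ± 0.23 and Tbk1 (the kinase of the TRIF arm) by 1.36 ± 0.19, the last call being lost without the BL6 control array (adjusted p = 0.0686). Ticam1, which encodes TRIF, rose by 1.35 ± 0.27, a call lost when any 1 of the 4 arrays was left out (adjusted p = 0.0779 to 0.171). Myd88 fell by 0.82 ± 0.40, a call lost when any 1 of the 4 arrays was left out (adjusted p = 0.0631 to 0.225) and with median centring. Sigirr, a negative regulator of the pathway, fell by 1.23 ± 0.40, a call lost when any 1 of the 4 arrays was left out (adjusted p = 0.0941 to 0.129).

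NF-kappaB subunits and the inhibitors that NF-kappaB itself switches on rose in 12 of 22 members, with none lower and a median of 1.27. Tnfaip3, the ubiquitin-editing inhibitor A20, read 689.9 and 496 without and 4220.5 and 3601 with LPS (3.23 ± 0.21, adjusted p = 1.78e-05). Nfkbiz, a nuclear cofactor needed for Il6 transcription, rose by 3.56 ± 0.32, the inhibitor Nfkbib by 2.95 ± 0.19, the RNase Zc3h12a, which degrades cytokine mRNA, by 2.95 ± 0.27 and the subunit Rel by 2.85 ± 0.30. These 5 genes rose in both strains, while Rela, the constitutively made subunit, read 1951 and 1270.0 without and 1395 and 996 with LPS and did not pass (0.11 ± 0.22, adjusted p = 0.512). Birc3 did not pass either (1.01 ± 0.21, adjusted p = 0.0902).

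The phosphatases that switch off MAP kinases included several rises. Of 11 MAP kinase phosphatases 5 were higher and 1, Dusp3, was lower (median 1.49): Dusp1 read 1024 and 452 without and 3337 and 1965 with LPS and rose by 2.41 ± 0.31, and Dusp14 left the background, from 11.6 and 22.2 to 335 and 257. Dusp2 rose by 2.86 ± 0.61, a call lost without the BALB/c control or BALB/c LPS array (adjusted p = 0.0728 to 0.102), and Dusp10 by 1.90 ± 0.30, a call lost without the BALB/c control array (adjusted p = 0.0585). Of 19 SOCS, JAK and STAT genes 6 were higher, 5 of them STAT genes, and 4 lower (median 0.40), the share of lower ones being close to that of all genes. The SOCS genes, inhibitors of cytokine receptors, went both ways. Socs3, which blocks signalling through the IL-6 receptor subunit gp130, read 344 and 183 without and 4369 and 3697 with LPS (4.44 ± 0.31, adjusted p = 1.85e-05). Socs6 read 968 and 1134 without and 241 and 156 with LPS and fell by 1.81 ± 0.29, Socs2 fell by 0.73 ± 0.26, though not with median centring, and Socs4 by 1.00 ± 0.35, a call lost without the BALB/c control, BL6 control or BL6 LPS array (adjusted p = 0.094 to 0.257). Stat5b rose by 3.74 ± 0.39 and Stat5a by 2.07 ± 0.33. Stat4 rose by 1.92 ± 0.38 (a call lost without the BALB/c control or BALB/c LPS array, adjusted p = 0.116 to 0.172) and Stat2 by 1.91 ± 0.47 (a call lost without the BALB/c LPS, BL6 control or BL6 LPS array, adjusted p = 0.113 to 0.272).

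Immediate early transcription factors split, with 6 of 22 higher and 8 lower (median 0.49, against shares of 7.96% and 21.8% over all genes). Atf3, a repressor induced by stress and TLR signals, read 919 and 1342 without and 8465 and 7409.8 with LPS (3.34 ± 0.24), and Maff rose by 3.34 ± 0.26. Fosl1, a FOS family member, left the background, from 15.2 and 18.1 to 486 and 206, and so did the nuclear receptor Nr4a1, from 33.3 and 29.7 to 394 and 196, a call lost without the BALB/c control array (adjusted p = 0.0602). The opposite was seen for Klf2, a factor of quiescence, which read 667 and 1123 without and 44.97 and 40.1 with LPS and fell by 3.39 ± 0.44. Klf4, a factor of monocyte differentiation, fell by 2.83 ± 0.51 from 1121 and 3414 to 102 and 299. Ier3, Jund and Nr4a3 did not pass (adjusted p = 0.0653, 0.284 and 0.96).

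Cytokine genes rose in 16 of 26 tested members and fell in 1, Tgfb1 (fell by 0.38 ± 0.28), with a median of 2.47. The Tgfb1 call was lost without the BALB/c control, BALB/c LPS or BL6 LPS array (adjusted p = 0.0861 to 0.3) and with median centring. Il1a read 295 and 112 without and 9594 and 9264 with LPS (6.09 ± 0.42) and Il1b 1032 and 187 without and 12954 and 12325 with LPS (5.30 ± 0.55, adjusted p = 0.00013). The control value of Il1b in BALB/c was above that of BL6, and both LPS values were far above either. Il12a, the specific subunit of IL-12, left the background, from 13.9 and 9.55 to 1038 and 887 (adjusted p = 8.42e-05). Osm, a member of the IL-6 family, read 296 and 202 without and 1661 and 1766 with LPS and rose by 3.25 ± 0.25. Ifnb1, interferon beta, went from 18.8 and 9.39 to 59.9 and 155 (adjusted p = 0.0156), a call lost without the BL6 control or BL6 LPS array (adjusted p = 0.106 to 0.162). Tnf read 199 and 97.9 without and 623 and 837 with LPS: both LPS values exceeded both control values, yet its change of 2.76 ± 0.85 missed the threshold (adjusted p = 0.0509). Ltb, lymphotoxin beta, read 1642 and 93.8 without and 92.7 and 25.7 with LPS and missed it in the other direction (adjusted p = 0.0503). Il10 was at background on all but 1 of the 4 arrays, at 24.1 and 4.97 without and 28.5 and 45.5 with LPS (adjusted p = 0.149).

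Chemokine genes rose in 14 of 26 members, with 1 lower (Cxcl12) and a median of 1.88. Cxcl2, an attractant of neutrophils, read 747 and 207 without and 11049.8 and 10372 with LPS (5.23 ± 0.40, adjusted p = 2.48e-05). Its neighbour Cxcl1 read 75.1 and 6.39 without and 7288 and 265 with LPS, so that the LPS value of BL6 was far below that of BALB/c (adjusted p = 0.00195). The third gene of this kind, Cxcl3, read 614 and 61.9 without and 5759 and 4809 with LPS (5.10 ± 0.69). The attractants of activated T cells, all made in response to interferon, rose too. Cxcl10 read 146 and 88.1 without and 1696 and 6717 with LPS (5.23 ± 0.89), with the higher LPS value in BL6. Cxcl9 left the background, from 18.1 and 16.5 to 1218 and 4225, and so did Cxcl11, from 49.1 and 9.96 to 1348 and 741. Ccl6 and Ccl9, attractants made by resting myeloid cells, read at least 10450.5 and 10410.3 on the 4 arrays and did not pass (adjusted p = 0.518 and 0.654). Cxcl12 dropped from 195 and 16.7 to 5.48 and 1.41, a call lost without the BALB/c control or BALB/c LPS array (adjusted p = 0.0976 to 0.163) and lost with median centring.

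NF-kappaB binds kappaB sites, and the promoters of some called cytokine and chemokine genes show where such letters lie. The search used a first form (GGGA, any base, TTTCC) and a second form (GGGAA, any base, TTCC) on both strands, which can overlap, in the stretch from 250 bases before to 50 bases after the start. The following stretches of 90 bases are shown because these called genes hold a match before the start; capitals mark the match, which in Cxcl1, Cxcl2 and Cxcl3 fits both forms. They are RefSeq sequences on GRCm38.p6, each read 5' to 3' on the strand of its gene. In order they are chr5:30013024-30013113 (plus strand), chr5:90891134-90891223 (plus), chr5:90903762-90903851 (plus), chr5:90785988-90786077 (plus) and chr5:92348999-92349088 (minus).
Il6: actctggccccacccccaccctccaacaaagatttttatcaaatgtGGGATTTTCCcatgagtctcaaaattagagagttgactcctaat
Cxcl1: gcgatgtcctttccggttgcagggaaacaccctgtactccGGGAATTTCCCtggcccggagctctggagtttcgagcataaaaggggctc
Cxcl2: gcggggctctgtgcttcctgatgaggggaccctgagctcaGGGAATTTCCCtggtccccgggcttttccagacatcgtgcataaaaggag
Cxcl3: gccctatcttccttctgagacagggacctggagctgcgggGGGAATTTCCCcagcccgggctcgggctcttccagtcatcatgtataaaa
Cxcl10: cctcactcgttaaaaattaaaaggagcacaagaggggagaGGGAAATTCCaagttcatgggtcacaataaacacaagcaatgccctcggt
The match begins 44 bases before the start in Il6, 71 in Cxcl1, 97 in Cxcl2, 73 in Cxcl3 and 159 in Cxcl10. The first form was in 37.5% of the 8 promoters of called chemokines, in 6.25% of the 16 of called cytokines and in 23.1% of the 13 of called NF-kappaB genes, against 0.411% of all 32851 promoters. The second form was in 50%, 6.25% and 7.69%, against 0.341%. Over all tested members, called or not, the first form was in 16.7% of chemokine, 11.5% of cytokine and 16.7% of NF-kappaB promoters and the second in 22.2%, 3.85% and 4.17%, so the share of the first form was higher among all tested cytokines than among the called ones. Cxcl1, Cxcl2 and Cxcl3 are neighbouring related genes, so their matches are not independent of each other.

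Chemokine and chemoattractant receptors showed 3 higher and 2 lower of 15 (median -0.02), or 20.0% and 13.3%, against 7.96% and 21.8% over all genes. Ccrl2, a scavenging receptor that presents the attractant chemerin, read 443 and 208 without and 10949 and 9639.5 with LPS (5.53 ± 0.23, adjusted p = 1.16e-06). Ccr7, the receptor that guides mature dendritic cells to lymph nodes, read 3397 and 2647 without and 8711 and 5175 with LPS, with both LPS values above both controls, but missed the threshold (1.69 ± 0.36, adjusted p = 0.078). Ackr3 and Cxcr5 were called higher, with LPS signals of 253 and 22.2 and of 133 and 39.6 that were above background in BALB/c and below it in BL6; the Ackr3 call was lost without the BALB/c control or BALB/c LPS array (adjusted p = 0.239 to 0.299) and the Cxcr5 call lost without the BALB/c control, BALB/c LPS or BL6 LPS array (adjusted p = 0.0663 to 0.219). C5ar1, the complement C5a receptor, fell by 1.48 ± 0.54, a call lost without the BALB/c control, BL6 control or BL6 LPS array (adjusted p = 0.059 to 0.257).

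Antiviral genes switched on by interferon rose in 31 of 40 members, with none lower and a median of 2.74 (2.20 in BALB/c and 3.0 in BL6). The count was 31 at the deposited scaling, 35 after quantile normalisation and 39 with median centring. Isg20, an RNA-degrading exonuclease, read 118 and 61.5 without and 5388 and 6326 with LPS (6.37 ± 0.60, adjusted p = 6.74e-05). Oasl1, a relative of the oligoadenylate synthetases, read 361 and 74.4 without and 7264 and 6419 with LPS (5.74 ± 0.61). Slfn4 rose by 6.34 ± 0.56, the mitochondrial kinase Cmpk2 by 5.70 ± 0.59 and Ifit2, which binds viral RNA, by 5.59 ± 0.65. In all of these the BALB/c control value was above that of BL6, whereas the LPS values of the strains were close. Mx1, at 1674 and 1165 without and 2943 and 3436 with LPS, and Ifitm3, already at 10982 and 6812 without LPS, did not pass (adjusted p = 0.0767 and 0.182).

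Whether interferon drove the rises of these antiviral genes was not tested. Such genes are known to be switched on through the interferon stimulated response element, searched as GAAA, any 2 bases and GAAA on both strands. It was in 13 of 29 promoters of the called genes (44.8%), in 43.2% of those of all tested members and in 3.44% of all promoters. Shown are 3 of the most changed genes with matches before the start, in capitals, here on the opposite strand and thus in the letters of its complement. Ifit1 lies at chr19:34640754-34640843 (plus strand), Rsad2 at chr12:26456523-26456612 (minus) and Ifit3 at chr19:34583350-34583439 (plus), all on GRCm38.p6.
Ifit1: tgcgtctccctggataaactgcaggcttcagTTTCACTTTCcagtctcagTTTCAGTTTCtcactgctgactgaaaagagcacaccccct
Rsad2: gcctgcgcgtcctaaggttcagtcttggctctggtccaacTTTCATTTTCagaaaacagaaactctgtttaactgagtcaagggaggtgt
Ifit3: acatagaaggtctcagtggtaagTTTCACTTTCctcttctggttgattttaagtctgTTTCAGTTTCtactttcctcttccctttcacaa
Ifit1 and Ifit3 carry 2 matches each, beginning 104 and 85 bases and 156 and 122 bases before the start, and Rsad2 has 1 at 120 bases. Ifit1 read 309 and 161 without and 5551 and 7175 with LPS (5.25 ± 0.60). Rsad2, the antiviral enzyme viperin, read 622 and 459.5 without and 13945 and 13912 with LPS (5.19 ± 0.23). Ifit3 read 368 and 144 without and 4209.9 and 6592 with LPS (4.94 ± 0.74). In all 3 genes the LPS arrays lay above the control arrays in both strains, which is likely in advance for genes picked by size.

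Enzymes that make nitric oxide and itaconate were among the genes that rose. Of 15 genes of nitric oxide, itaconate, arginine and tryptophan metabolism 6 were higher and 4 lower (median 0.81). These shares were 40.0% and 26.7%, against 7.96% and 21.8% over all genes. Nos2, the inducible nitric oxide synthase, left the background, from 4.88 and 3.12 to 1439 and 705 (adjusted p = 7.08e-06). Acod1, which makes itaconate, read 765 and 167 without and 9271 and 9871 with LPS (5.19 ± 0.62). Arg1, an arginase and thus a competitor of Nos2 for arginine, read 266 and 124 without and 8715 and 3489 with LPS (5.33 ± 0.49, adjusted p = 0.000146). Arg2 rose by 3.16 ± 0.41 and Slc7a2, an importer of arginine, by 3.73 ± 0.22, so both consumers of arginine and a transporter were called. Kmo, of the kynurenine pathway, dropped from 637 and 177 to 30.1 and 23.4, a call lost without the BALB/c control, BALB/c LPS or BL6 LPS array (adjusted p = 0.054 to 0.122).

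For prostaglandins and leukotrienes 3 of 18 genes were higher and 6 lower (median -0.57). Beside Ptgs2 the terminal synthase Ptges rose, reading 60.7 and 54.5 without and 2273 and 1408 with LPS (5.14 ± 0.31, adjusted p = 7.64e-06). In contrast Alox5, the first enzyme of leukotriene synthesis, reached background, going from 1161 and 408 to 36.7 and 41.1 (adjusted p = 0.000539). Alox15 went from 343 and 22.8 to 2.91 and 2.84, a call lost without the BALB/c control or BALB/c LPS array (adjusted p = 0.228 to 0.242) and with median centring. Ptger2, a receptor for prostaglandin E2, fell by 2.49 ± 0.51 from 448 and 477 to 54.9 and 33.1. Ptger4, the other receptor of high signal, did not pass (adjusted p = 0.0608), nor did Alox5ap (adjusted p = 0.0524).

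Surface genes of maturation rose in 17 of 28 members and fell in 2, Tnfsf14 and, though not with median centring, Cd44 (median 2.05). Cd40, which receives help from T cells, read 278 and 116 without and 8499 and 8054 with LPS (5.92 ± 0.26, adjusted p = 1.16e-06). Cd86 read 936 and 501 without and 5945 and 7830.0 with LPS (3.81 ± 0.29) and its partner Cd80 351 and 230.2 without and 1348 and 1022 with LPS (2.51 ± 0.25), both being ligands of CD28 on T cells. Cd83, a maturation marker, read 1696 and 1512 without and 6329 and 5426 with LPS (2.39 ± 0.29). These 4 genes were higher in both LPS arrays than in either control, which is likely for called genes with changes of this size. Cd200 rose by 4.44 ± 0.27, Cd70 by 4.20 ± 0.30 and Slamf1 by 4.16 ± 0.48, with a lower LPS value of Slamf1 in BL6 (1981 and 312). Fscn1, an actin bundler of mature dendritic cells, read 4698 and 3047 without and 5674 and 2942 with LPS and Marcksl1 5501 and 1522 without and 6935 and 3354 with LPS, and neither passed (adjusted p = 0.909 and 0.208).

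Genes of peptide presentation on MHC class II mostly did not pass. Of 18 members 1 was higher and 4 were lower, shares close to those of all genes, but 8 were higher and 1 lower with median centring (median 0.48). Cd74, the invariant chain, read 13878 and 14239 without and 13713 and 14148 with LPS and H2-Aa 12001 and 12051 without and 12561 and 12092 with LPS, and neither passed (adjusted p = 0.931 and 0.868). The highest signal in the table is 17488, and of 67 genes that read 8000 or more on all 4 arrays 3 were called higher and none lower, with a median change of 0.51. H2-DMa, which loads peptides, read 5585 and 6591 without and 1771 and 2246 with LPS and fell by 1.07 ± 0.22 (adjusted p = 0.000337). Ciita, the master activator of the class II genes, read 926 and 660.0 without and 307 and 304 with LPS; its call as lower (adjusted p = 0.0489) was lost without the BALB/c control, BALB/c LPS or BL6 control array (adjusted p = 0.126 to 0.313) and lost with median centring. The same was true of H2-DMb2 (a call lost without the BALB/c control, BL6 control or BL6 LPS array, adjusted p = 0.0828 to 0.221) and of the ubiquitin ligase Marchf8 (a call lost without the BALB/c control, BALB/c LPS or BL6 LPS array, adjusted p = 0.0786 to 0.289), while Rfxank was called higher (1.22 ± 0.26), a call lost when any 1 of the 4 arrays was left out (adjusted p = 0.073 to 0.323).

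For MHC class I 6 of 17 genes were higher and 2 lower, and 15 were higher with none lower under median centring (median 1.17). Tap1, a subunit of the peptide transporter, read 1139 and 858 without and 3568 and 2990.0 with LPS (2.23 ± 0.26, adjusted p = 0.00053). The immunoproteasome subunit Psmb9 rose by 1.73 ± 0.17. The activator Nlrc5 rose by 1.95 ± 0.46 (a call lost without the BALB/c LPS, BL6 control or BL6 LPS array, adjusted p = 0.0725 to 0.313), H2-M3 by 1.52 ± 0.22 (a call lost without the BALB/c control, BALB/c LPS or BL6 LPS array, adjusted p = 0.0622 to 0.107) and Psme1 by 1.38 ± 0.20 (a call lost without the BL6 control array, adjusted p = 0.052). H2-K1 and B2m read at least 9455 and 10506 on the 4 arrays and did not pass (adjusted p = 0.264 and 0.883).

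Several receptors of antigen uptake fell. Of 21 C-type lectins 9 were lower and 4 higher (median -0.38), counts of 8 and 4 with median centring. Clec10a, a galactose-binding receptor, reached background, reading 2550.2 and 2859.8 without and 32.9 and 35.2 with LPS (adjusted p = 1.16e-06). Mrc1, the mannose receptor, read 3496 and 4057 without and 108 and 152 with LPS and fell by 4.19 ± 0.57. Clec4b1 fell by 4.20 ± 0.40 and Clec4a3 by 3.62 ± 0.52, both receptors of the DCIR and DCAR cluster, and Cd209a, a relative of human DC-SIGN, went from 767 and 389 to 26.2 and 19.9. In the other direction Clec4e, the receptor Mincle, read 838 and 717 without and 10112 and 11838 with LPS and rose by 4.32 ± 0.26, and Cd69, an activation marker, by 4.30 ± 0.71. Clec7a (Dectin-1) and Clec4n (Dectin-2) did not pass (adjusted p = 0.57 and 0.267).

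Of 28 genes of Fc receptors and phagocytosis 10 were lower and 2 higher (median -0.02), but 6 were lower and 6 higher with median centring. Fcgrt, the neonatal Fc receptor, read 3204 and 2096 without and 263 and 131 with LPS and fell by 3.16 ± 0.21 (adjusted p = 4.06e-06). Trem2, a lipid-sensing receptor, fell by 2.22 ± 0.38, Fcrls by 3.51 ± 0.54, and Pros1, a bridge to apoptotic cells, went from 606 and 530.3 to 21.96 and 19.2. Marco, a scavenger receptor for bacteria, did the opposite and read 2.63 and 193 without and 2238 and 4073 with LPS (6.13 ± 0.63, adjusted p = 0.000304). Its BALB/c control value was at background while that of BL6 was not. Of 26 lysosomal genes 6 were lower and 1 higher, but 2 were lower and 13 higher with median centring (median 0.26). The lower share of 23.1% is close to the 21.8% of all genes. Gusb, beta-glucuronidase, fell by 3.01 ± 0.47 and Man2b1, a mannosidase, by 1.63 ± 0.27, while Gla, an alpha-galactosidase, rose by 2.50 ± 0.29. Ctsb and Psap read at least 11971 and 13216 on the 4 arrays and did not pass (adjusted p = 0.973 and 0.453).

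Other pattern recognition receptors showed 4 of 23 higher and 4 lower (median 0.22), or 17.4% each, against 7.96% and 21.8% over all genes. Casp4, the cytosolic sensor of LPS, read 316 and 273 without and 2811 and 3464 with LPS (3.86 ± 0.30, adjusted p = 3.7e-05). Casp1 rose by 1.83 ± 0.35 (a call lost without the BALB/c LPS or BL6 control array, adjusted p = 0.0628 to 0.0847) and Tlr1 by 2.10 ± 0.39 (a call lost without the BALB/c LPS or BL6 control array, adjusted p = 0.067 to 0.0939). Sting1, the adaptor of cytosolic DNA sensing, moved the other way, reading 2155 and 1768 without and 164 and 202 with LPS, and fell by 2.78 ± 0.35 (adjusted p = 0.000147). Tlr13 fell by 1.78 ± 0.59 (a call lost without the BALB/c control or BL6 LPS array, adjusted p = 0.147 to 0.188), and Tlr2 did not pass (adjusted p = 0.829).

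Receptors for growth factors and cytokines were lower in 9 of 24 and higher in 2 (median -0.14), and 6 were lower and 10 higher with median centring. Il6ra, the receptor for IL-6, read 645 and 880.1 without and 56.6 and 31.7 with LPS and fell by 3.18 ± 0.31 (adjusted p = 0.000139). Ifngr1 fell by 2.26 ± 0.26 and Tgfbr1 by 1.96 ± 0.42, whereas Ifnar2, of the interferon alpha and beta receptor, rose by 2.01 ± 0.24. Il18r1 went from 254 and 150.1 to 2.19 and 14.4. Csf2rb, the signalling subunit of the GM-CSF receptor, and Csf1r read at least 8411 and 6057 on the 4 arrays and did not pass (adjusted p = 0.801 and 0.119).

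Transcription factors of dendritic and myeloid cells split into 7 higher and 9 lower of 28 (median 0.11). Nfil3 read 424 and 266 without and 4528 and 2162 with LPS (3.69 ± 0.47), Batf rose by 3.03 ± 0.26 and Hivep3 by 2.77 ± 0.26. Id3, an inhibitor of E proteins, left the background, from 13.5 and 1.83 to 138 and 83.8. Id2 and Bhlhe40 did not pass (adjusted p = 0.097 and 0.923). Among 14 retinoid genes 1 was higher and 3 were lower, but 5 were higher and 1 lower with median centring (median 0.27). The shares of 7.14% higher and 21.4% lower are close to those of all genes (7.96% and 21.8%). Aldh1a2, which makes retinoic acid in dendritic cells, read 1606 and 1059.7 without and 3207 and 2091 with LPS and rose by 1.51 ± 0.25 (adjusted p = 0.00846), a call lost without the BALB/c control or BL6 LPS array (adjusted p = 0.0817 to 0.102). Dhrs3, which returns retinal to retinol, read 1178 and 1576 without and 293 and 217 with LPS and fell by 1.83 ± 0.28 (adjusted p = 0.000787). Rxrb fell by 0.58 ± 0.23, a call lost when any 1 of the 4 arrays was left out (adjusted p = 0.0583 to 0.193) and with median centring. Rarb, low in the controls at 66.2 and 37.4, was called lower, a call lost when any 1 of the 4 arrays was left out (adjusted p = 0.0734 to 0.13) and with median centring, and Rara did not pass (adjusted p = 0.145).

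Genes of glycolysis and of the hypoxia response were higher in 19 of 23 members, with none lower, a median of 1.86 and 22 higher with median centring. Vegfa, the vascular growth factor, read 128 and 85.95 without and 4053 and 2253 with LPS (5.18 ± 0.50, adjusted p = 0.000176). Slc2a1, the glucose transporter GLUT1, read 1228 and 548 without and 8666 and 6334 with LPS (3.67 ± 0.31, adjusted p = 5.78e-05). Egln3, an oxygen sensor, rose by 4.70 ± 0.50 and Bnip3, a mitophagy receptor, by 3.27 ± 0.33. Adm, the peptide adrenomedullin, left the background, from 28.1 and 18.1 to 809 and 892. Enzymes of glycolysis itself rose by smaller amounts, Hk2 (hexokinase) by 2.27 ± 0.24, Ldha (lactate dehydrogenase) by 1.42 ± 0.15 and Pkm (pyruvate kinase) by 1.5 ± 0.18. Hif1a, the transcription factor of this response, read 4105 and 2012 without and 3981 and 2902 with LPS and did not pass (adjusted p = 0.436), and Pgk1, at 10399.7 and 10202 without and 13409.5 and 12856 with LPS, missed the threshold (adjusted p = 0.051).

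In the list of the citrate cycle, which burns the products of glycolysis in mitochondria, 13 of 19 genes were lower and none higher, and 9 were lower and 2 higher with median centring (median -0.68). The list also holds cytosolic enzymes, such as Idh1, and subunits of pyruvate dehydrogenase, such as Pdhb. Some of both kinds are among the 13. Idh1, the cytosolic isocitrate dehydrogenase, read 4652 and 4687 without and 909.7 and 315 with LPS and fell by 2.55 ± 0.37 (adjusted p = 0.000175). Fh1, fumarase, read 3888 and 2206 without and 496 and 307 with LPS and fell by 2.33 ± 0.31. Idh2 fell by 2.23 ± 0.31 and Idh3a by 2.04 ± 0.32, so that isocitrate dehydrogenases of both compartments were lower. Mdh2 and Pdhb did not pass (adjusted p = 0.888 and 0.818). For oxidative phosphorylation 17 of 30 subunits were called lower and none higher, but with median centring 3 were lower and 9 higher, and the median relative change was -0.06. The largest falls were those of Ndufs1 (by 1.16 ± 0.25), Ndufa4 (by 1.07 ± 0.44), Sdhc (by 1.00 ± 0.22) and Ndufa9 (by 0.78 ± 0.23). The Ndufa4 call was lost without the BALB/c control, BL6 control or BL6 LPS array (adjusted p = 0.0653 to 0.231) and with median centring, while Cox7a2 and Cox6c read at least 6053 and 6989.9 on the 4 arrays and did not pass.

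Cholesterol synthesis and its control were lower in 11 of 27 genes and higher in 2 (median -0.37), and lower in 6 and higher in 5 with median centring. Scap, which escorts the sterol-regulated transcription factor SREBP, read 793 and 428 without and 113 and 78.1 with LPS and fell by 1.92 ± 0.30 (adjusted p = 0.000274). Cyp51 fell by 1.84 ± 0.32 and Dhcr7 by 1.82 ± 0.28, both enzymes late in the pathway. Insig2, which holds SREBP back in the endoplasmic reticulum, read 348 and 339 without and 1091 and 1051 with LPS and rose by 2.12 ± 0.29. The sterol regulatory element, searched as TCACNCCAC on both strands, was in 9.09% of 11 promoters of genes called lower, in 3.23% of those of all tested members and in 1.24% of all promoters.

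Genes of cell division were lower in both strains. Of 39 mitosis genes 34 were lower and none higher, also at the deposited scaling and after quantile normalisation alone, and 29 with median centring (median -1.89, which was -2.60 in BALB/c and -1.37 in BL6). Cdc20, the activator of the anaphase-promoting complex, reached background, reading 1529 and 633 without and 25.7 and 11.3 with LPS (adjusted p = 7.08e-06). Ccnb2, a mitotic cyclin, went from 1092 and 614 to 19.2 and 42.4, and Kif20a from 360.5 and 126 to 6.95 and 3.44. Birc5, survivin, read 1304 and 819 without and 49.1 and 86.1 with LPS and fell by 3.16 ± 0.41, and Ube2c fell by 3.42 ± 0.57. The BALB/c control culture had the higher signal of Cdc20, Ccnb2, Kif20a, Birc5 and Ube2c, and the summed signal of the list was 28451 and 13879 in the controls against 4651 and 5313 with LPS. Cks2, Cenpa and Tpx2 did not pass (adjusted p = 0.693, 0.33 and 0.822), and Tpx2 was lower with LPS in BALB/c (-1.18) and higher in BL6 (1.84).

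Of 31 DNA replication genes 21 were lower and none higher (median -1.35), with 19 lower and 2 higher under median centring. Rrm2, a subunit of ribonucleotide reductase, reached background, from 1498 and 455 to 53.95 and 24.1 (adjusted p = 0.000126), and its partner Rrm1 fell by 2.21 ± 0.40. Mcm5, of the replicative helicase, fell by 2.42 ± 0.54, a call lost without the BALB/c control array (adjusted p = 0.0593). Fen1 and Cdt1 did not pass (adjusted p = 0.329 and 0.216). Of 20 cyclin-dependent kinase inhibitors and genes of the G1 phase 4 were lower and 2 higher (median 0.10), shares close to those of all genes. Cdkn1a, the inhibitor p21, read 3852 and 3152 without and 7410.5 and 7104 with LPS and rose by 1.58 ± 0.15 (adjusted p = 0.000477), and Ccnd2, cyclin D2, read 2334 and 634 without and 8305 and 8759 with LPS and rose by 3.32 ± 0.48. Cdk4 fell by 1.10 ± 0.22 and Cdkn2c by 1.57 ± 0.29, while E2f2 went from 184 and 326 to 24.9 and 16.8.

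Genes of late cell division are known to be held down in resting cells through the cell cycle genes homology region, searched as TTTGAA, beside CCAAT boxes, both on either strand. TTTGAA was in 21 of 28 promoters of the mitosis genes called lower (75.0%), in 71.9% of those of all tested members and in 17.9% of all promoters, and CCAAT in 75.0%, 78.1% and 37.4%. The E2F site TTTCGCGC was in 20.0% of 20 promoters of replication genes called lower, in 22.6% of those of all tested members and in 0.323% of all. The shares of CCAAT and of the E2F site were thus no higher among the called genes than in their whole list. The promoter of Cdc20, a mitosis gene that reached background, is shown from 90 bases before the start to the start (chr4:118437344-118437433, minus strand, GRCm38.p6), with both kinds of match in capitals.
Cdc20: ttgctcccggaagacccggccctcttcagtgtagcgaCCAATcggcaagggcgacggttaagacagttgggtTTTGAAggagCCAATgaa
TTTGAA begins 18 bases before the start, and CCAAT begins 53 and 8 bases before it.

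**Figure D3:**
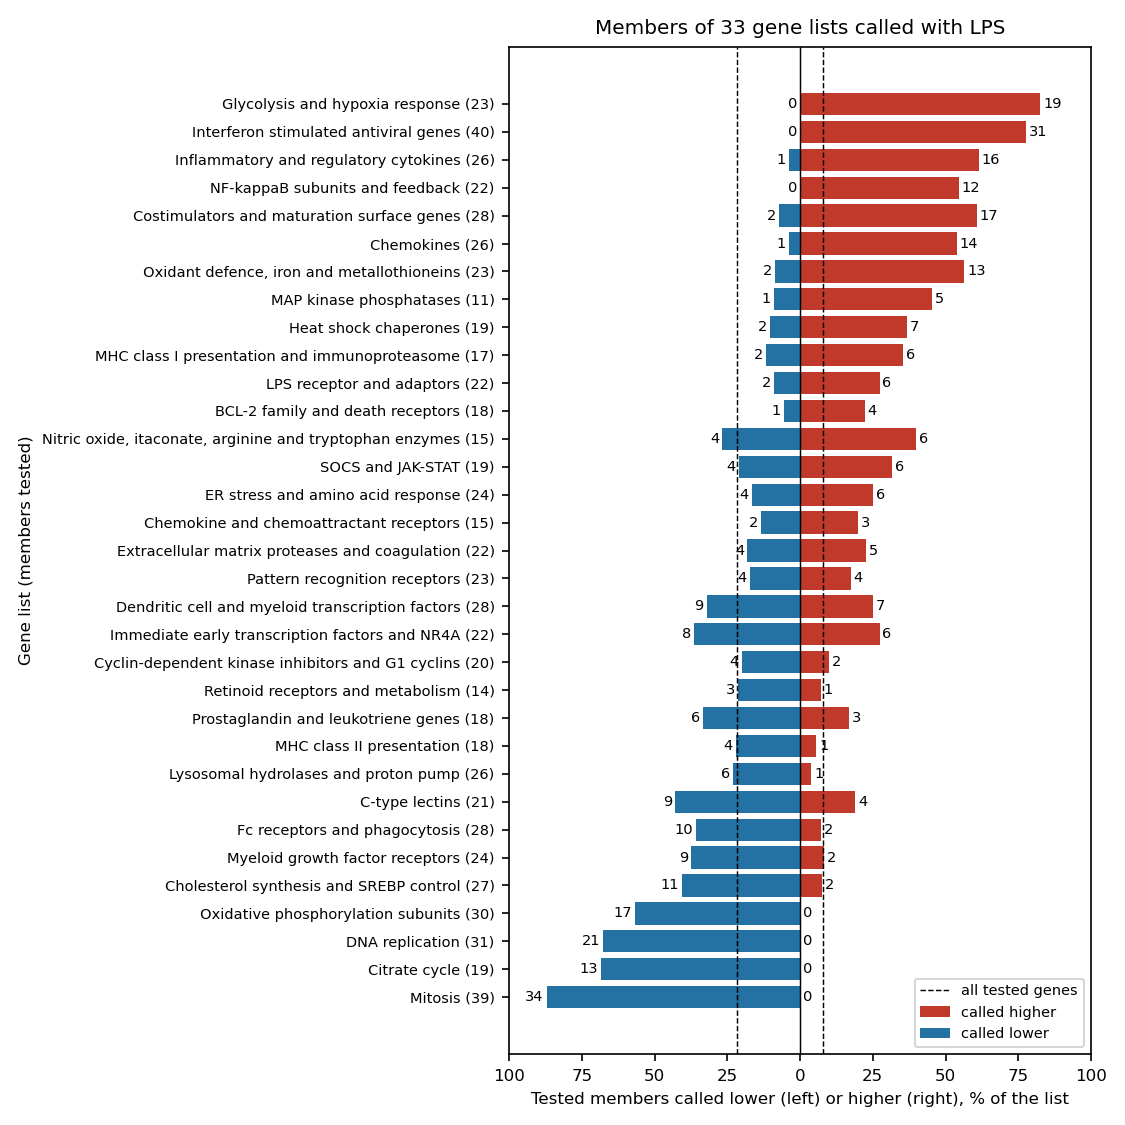
Share of tested members called lower (blue, left) and higher (red, right) in each of 33 gene lists, with the number of members tested in brackets and the number called beside each bar; the dashed lines mark 21.8% lower and 7.96% higher over all tested genes. Glycolysis and hypoxia (19 of 23), interferon stimulated genes (31 of 40) and cytokines (16 of 26) stand at the higher end, and mitosis (34 of 39) and the citrate cycle (13 of 19) at the lower end.

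Several stress-inducible chaperones rose. Of 19 heat shock chaperones 7 were higher and 2 lower (median 0.70), and 11 were higher with none lower under median centring. Hspa1a and Hspa1b, the inducible HSP70 genes, left the background: Hspa1a went from 11.9 and 53.1 to 3775 and 6057 and Hspa1b from 25.5 and 45.6 to 4337 and 5449 (adjusted p = 9.77e-06 and 2.52e-06). The sequences of both genes are nearly identical, so their signals cannot be assigned to one or the other. Hsph1 rose by 2.41 ± 0.28 and Dnajb4 by 2.27 ± 0.31, whereas Hspa8, the constitutive family member, read at least 10789.7 on the 4 arrays and did not pass (adjusted p = 0.377). The heat shock element, searched as GAA, TTC and GAA with any 2 bases between each on both strands, was in 22.2% of 9 promoters of the genes called higher, in 23.8% of those of all tested members and in 0.603% of all promoters. Of 24 genes of endoplasmic reticulum stress and amino acid shortage 6 were higher and 4 lower (median 0.34). Slc7a11, the cystine importer, read 226 and 108 without and 1925 and 1849 with LPS (3.98 ± 0.42, adjusted p = 0.000165). Ddit3, the factor CHOP, rose by 3.15 ± 0.23 and Ddit4 by 2.77 ± 0.48, but Herpud1 fell by 2.11 ± 0.38 and the chaperone Hspa5 did not pass (adjusted p = 0.562).

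Of 23 genes of oxidant defence and metal handling 13 were higher and 2 lower (median 1.52). Hmox1, heme oxygenase, read 898 and 1711 without and 10689 and 9468 with LPS (3.53 ± 0.30, adjusted p = 0.000296). Saa3, an acute phase protein, read 1484 and 2337 without and 11654 and 11638 with LPS (3.16 ± 0.36), and the metallothionein Mt2 1402 and 3476 without and 15459.5 and 11744 with LPS (3.13 ± 0.39). The metal transporters Slc11a1 and Slc11a2 rose by 3.01 ± 0.36 and 2.97 ± 0.29. In the list of BCL-2 and death receptor genes 4 of 18 were higher and 1 lower (median 0.50). Cflar, an inhibitor of caspase 8, read 596 and 407 without and 2447 and 2349 with LPS (2.77 ± 0.25), and Mlkl, the effector of necroptosis, rose by 2.91 ± 0.37. Bcl2l11, the death-promoting protein BIM, fell by 2.42 ± 0.59, a call lost without the BL6 control or BL6 LPS array (adjusted p = 0.0563 to 0.0733), and another probe set of this gene was called in the other direction. Of 22 genes of matrix and coagulation 5 were higher and 4 lower (median 0.36). These shares were 22.7% and 18.2%, against 7.96% and 21.8% over all genes. Timp1, an inhibitor of matrix proteases, read 538 and 138 without and 4409 and 4354 with LPS (4.44 ± 0.50). F3, tissue factor, left the background, from 18.9 and 10.1 to 188 and 111.

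Markers were read to check the label of the cells. Of 19 conventional dendritic cell markers on the array none was below background on all 4 arrays, and their summed signal was 74603 and 73020 in the controls and 64213 and 61623 with LPS. Most of this sum came from Cst3, Cd74, H2-Aa and H2-Ab1, each at 10631 or more on the 4 arrays, so it says little about the dimmer markers. Itgax, the CD11c integrin, read 6159 and 4670.5 without and 2734 and 2890.0 with LPS. Flt3 was low in the controls (59.2 and 68.1) and at background with LPS, and Zbtb46, a defining factor of the lineage, read 125 and 134 without and 73.2 and 47.7 with LPS. Of 20 macrophage markers 1 was below background on all 4 arrays, and their sum was 101429 and 101378 in the controls and 84704 and 83617 with LPS. The cultures thus carried markers of both kinds of cell, which the labels do not separate.

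With LPS, 10 of 19 tested dendritic cell markers were lower and 1 higher (median -0.79), and 7 lower and 5 higher with median centring. The marker called higher, the transcription factor Irf8, read 2226 and 2432 without and 5807 and 3875 with LPS (1.55 ± 0.21). The Irf8 call was lost without the BALB/c control or BALB/c LPS array. Naaa, an acid amidase, fell by 3.21 ± 0.30 and Wdfy4, needed for cross-presentation, by 2.37 ± 0.50, while Itgae went from 462 and 280.1 to 36.3 and 26.1. Itgax was called lower by 0.40 ± 0.20, a call lost without the BALB/c control or BALB/c LPS array (adjusted p = 0.0574 to 0.0661) and with median centring, and so was the Flt3 call (a call lost when any 1 of the 4 arrays was left out, adjusted p = 0.0812 to 0.14). Of 19 macrophage markers 7 were lower and 1, Cd14, was higher (median -0.17), and 4 lower and 6 higher with median centring. C1qc fell by 1.37 ± 0.35 and C1qa, at 9447 and 8674 without and 2303 and 4683 with LPS, by 0.93 ± 0.26, the latter not with median centring, whereas Lyz2 and Lyz1 read at least 10463 and 12121 on the 4 arrays and did not pass.

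Neutrophil markers were lower in 8 of 19 and higher in 2 (median -1.27), 7 and 3 with median centring, and their summed signal was 29726 and 23119 in the controls against 13526 and 13006 with LPS. Ngp, a granule protein, read 2746 and 2526 without and 156 and 88.6 with LPS and fell by 3.78 ± 0.82 (adjusted p = 0.00475). S100a9 read 5293 and 4332 without and 344 and 196 with LPS and S100a8 5492 and 5431 without and 466 and 531 with LPS; the call of S100a9 was lost without the BALB/c control or BL6 LPS array (adjusted p = 0.0643 to 0.0751) and that of S100a8 lost without the BALB/c control array (adjusted p = 0.0544). Orm1, an acute phase protein on this list, rose instead, from 0.44 and 9.08 to 479 and 1936. The other marker called higher, Lcn2, read 2092 and 961 without and 9169 and 5377 with LPS (2.82 ± 0.62). Its call was lost without the BALB/c LPS or BL6 control array. Of the B cell list Ighm, the IgM heavy chain, went from 915 and 1365 to 48.7 and 6.09 (adjusted p = 0.000359) and no other of 7 tested members was called. Siglecf, of eosinophils, went from 726 and 722 to 21.7 and 45.8, and Hdc, histidine decarboxylase, from 36.6 and 2.01 to 1559.8 and 283, with 1 lower and 1 higher of 9 mast cell, basophil and eosinophil markers. Klk1b27, on the plasmacytoid list, fell by 4.42 ± 0.84 while Bst2 of the same list, itself an interferon stimulated gene, rose by 3.17 ± 0.23. Of 14 T and NK cell markers 11 were below background on all 4 arrays and none of 3 tested was called. Erythroid markers were called in 1 of 9 (Car2, higher, a call lost without the BL6 control or BL6 LPS array, adjusted p = 0.0598 to 0.0697) and stromal ones in 5 of 13, with 3 higher and 2 lower (5 and none with median centring). Dcn left the background from 5.26 and 3.69 to 188 and 89.1. Of the other stromal calls that of Lum was lost without the BALB/c control, BALB/c LPS or BL6 control array (adjusted p = 0.0679 to 0.419), that of Vwf lost when any 1 of the 4 arrays was left out (adjusted p = 0.0587 to 0.181) and that of Cxcl12 lost without the BALB/c control or BALB/c LPS array (adjusted p = 0.0976 to 0.163). How far a change in the mix of cells entered the other results was not tested.

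The same LPS comparison was made in the RA cultures and in the Ro cultures, which share no array with the comparison above. All settings were, however, part of the same limma fit, with a common strain term and a common variance for each gene. A gene of small variance was thus more easily called in every setting. The overlaps of the lists are therefore partly built in and are not independent results. In RA cultures 811 genes were higher and 2105 lower (6.53% and 16.9% of those tested). Of the 989 genes higher without retinoid 626 were also higher with RA (63.3%, and 77.2% of the RA list), and of the 2709 lower ones 1691 were lower (62.4% and 80.3%), with 0 called in opposite directions. In Ro cultures 744 were higher and 1901 lower (5.99% and 15.3%). The overlap with the list without retinoid was 451 higher (45.6% of it, and 60.6% of the Ro list) and 1363 lower (50.3% and 71.7%), with 9 in opposite directions. Across genes the changes correlated with r = 0.88 for RA (rho = 0.847) and 0.753 for Ro (rho = 0.718). In all 3 settings 372 genes were higher and 1131 lower, and 280 higher and 785 lower genes were called without retinoid alone, which does not by itself show a difference.

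The difference was therefore tested gene by gene. Between RA cultures and cultures without retinoid limma called no gene (0 of 12429 at an adjusted p under 0.05, 560 at an unadjusted p under 0.05). The genes of smallest p were Arg1 and Osm, whose change was smaller with RA. In cultures without retinoid Arg1 read 266 and 124 without and 8715 and 3489 with LPS. In RA cultures it read 1882 and 4713 without and 4713 and 4088 with LPS, so that its signal without LPS was higher there (difference -4.37 ± 0.69, adjusted p = 0.485). Osm changed by 3.25 without retinoid and by 0.91 with RA (difference -2.34 ± 0.36, adjusted p = 0.485). Cfb, complement factor B, went the other way (4.37 against 6.64), from control signals of 549 and 378 without retinoid and 75.2 and 85.0 with RA.

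Between Ro cultures and cultures without retinoid 77 genes differed (0.62% of those tested), 30 with a larger and 47 with a smaller value in Ro cultures. Of these, 61 were among the genes called with LPS without retinoid, which are 29.8% of all tested genes. The control and LPS arrays without retinoid enter both calls, so this overlap is partly built in and is no separate result. Heat shock and hypoxia genes were among the 77. In cultures without retinoid Hspa1b read 25.5 and 45.6 without and 4337 and 5449 with LPS, and in Ro cultures 52.5 and 34.2 without and 142 and 216 with LPS (adjusted p of the difference = 0.00462). Adm read 28.1 and 18.1 without and 809 and 892 with LPS in the former and 51.3 and 54.6 without and 43.4 and 55.4 with LPS in the latter (adjusted p of the difference = 0.00462), the Ro arrays with and without LPS lying close together. As a group of either gene lay at background, no size of the difference is given. Of the 19 heat shock genes 3 differed (Hspa1a, Hspa1b and Hsph1) and of the 23 glycolysis and hypoxia genes 2 (Slc2a1 and Adm), all with the smaller value in Ro. Of the latter list 19 members were called higher without retinoid, 10 in RA cultures and 8 in Ro cultures, with medians of 1.86, 0.84 and 0.69.

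The sign itself turned in some genes. In cultures without retinoid Apoc2, an apolipoprotein, read 1960.2 and 2278 without and 861 and 619 with LPS. In Ro cultures it read 195 and 299 without and 5545 and 3414 with LPS, and both LPS values were far above the others (difference 5.45 ± 0.47, adjusted p = 0.00462). The call of Apoc2 without retinoid was lost without the BALB/c control, BL6 control or BL6 LPS array (adjusted p = 0.0727 to 0.164) and lost with median centring. Pdgfc, a growth factor, showed the same pattern, at 412 and 553 without and 38.8 and 36.9 with LPS in cultures without retinoid and 72.98 and 168 without and 267 and 292 with LPS in Ro cultures (adjusted p of the difference = 0.00462, with no size given because its LPS signals lay at background). Hcar2, a receptor for butyrate and niacin, rose in cultures without retinoid, at 662 and 109 without and 3707 and 3491 with LPS, and read 1454 and 1028 without and 368 and 340.2 with LPS in Ro cultures (difference -5.52 ± 0.68, adjusted p = 0.0101). C1qa read 9447 and 8674 without and 2303 and 4683 with LPS in cultures without retinoid and 10869 and 10020.0 without and 289 and 472 with LPS in Ro cultures, with the larger decrease in Ro (difference -3.45 ± 0.37, adjusted p = 0.00973). These counts depended on single arrays: 7 were larger and 30 smaller without the BALB/c control array, 2 and 5 without the BL6 control array, 61 and 38 without the BALB/c LPS array and 3 and 5 without the BL6 LPS array. They were 2 and 5 without the BALB/c Ro array, 3 and 8 without the BL6 Ro array, 1 and 1 without the BALB/c Ro and LPS array and 8 and 61 without that of BL6. With no strain term 3 were larger and 8 smaller.

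**Figure D4:**
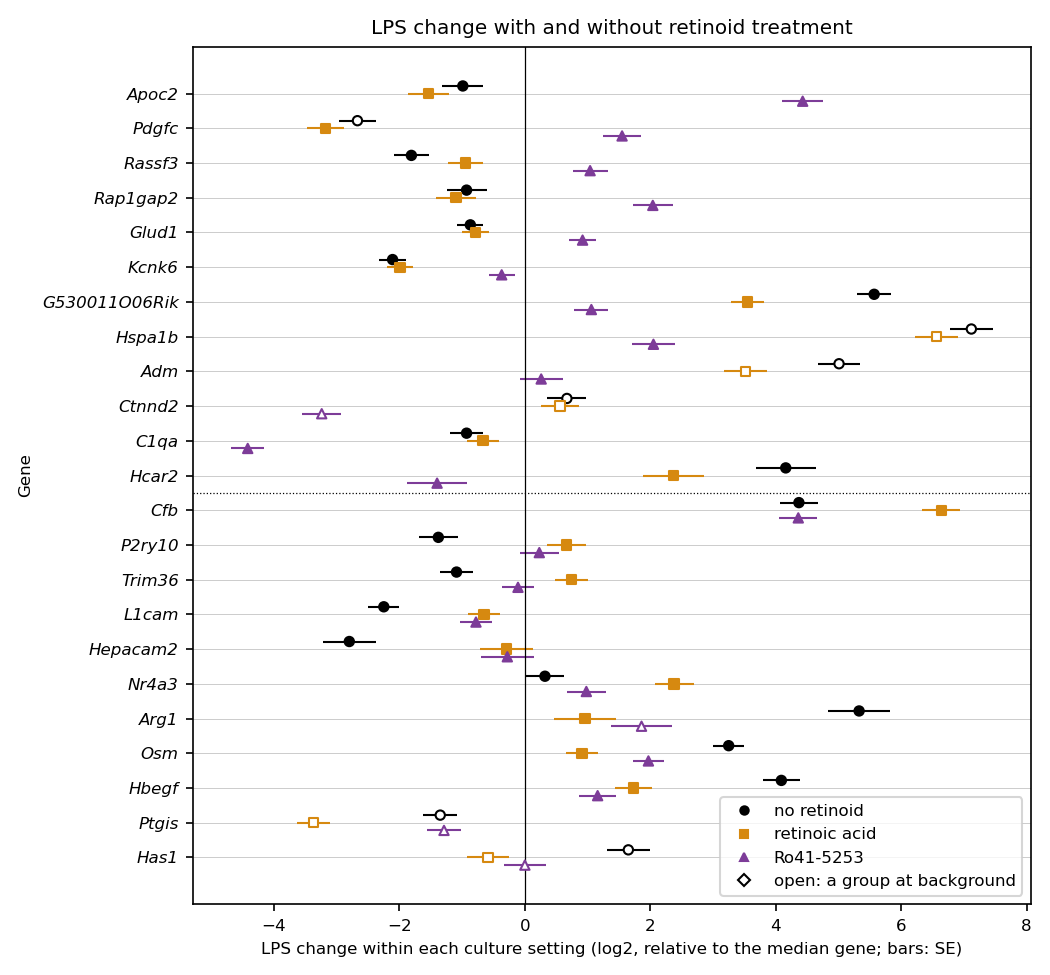
Change with LPS (x axis, log2 relative to the median gene, bars SE) in cultures without retinoid (black circles), with RA (orange squares) and with Ro (purple triangles), for the genes of smallest p in the test of the difference for Ro (above the dotted line) and for RA (below it). Open symbols mark a setting with a group at background, where the plotted size depends on the added constant. Apoc2 lies at -0.99, -1.54 and 4.43, and C1qa at -0.93, -0.67 and -4.42.

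The strains differed in single genes. With 1 array per strain and condition no test within the 4 arrays was possible, and the following values were chosen for their difference. Ifi213, an interferon-inducible gene, read 13.02 and 29.9 without and 36.6 and 1620.1 with LPS, below background on the BALB/c LPS array (a call lost without the BL6 control or BL6 LPS array, adjusted p = 0.221 to 0.261). Ptx3, a soluble pattern receptor, read 11.3 and 82.2 without and 5.04 and 1146 with LPS, and Ccl12 142 and 46.99 without and 100.3 and 564 with LPS. Nts, neurotensin, was the reverse at 12.5 and 7.30 without and 1047 and 64.7 with LPS. Slamf8 was lower with LPS in BALB/c and higher in BL6, at 583 and 674 without and 126 and 1689.7 with LPS. Car4 read 1238 and 113 without and 1116 and 1221 with LPS, and Iqgap2 109 and 623 without and 128 and 33.2 with LPS, so that each moved in BL6 mainly. Smim5 read 92.9 and 1016 without and 3.50 and 3.24 with LPS, Ang 7.67 and 764 without and 4.75 and 47.8 with LPS and Slc40a1 279 and 589.5 without and 154 and 22.6 with LPS, each with the higher control signal in BL6. Of these 3 Smim5 alone was called lower over both strains, a call lost without the BL6 LPS array (adjusted p = 0.0544).

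Over all 12 arrays an LPS by strain term could be tested, and 3 genes passed (0.0241% of those tested, with 667 at an unadjusted p under 0.05). The 3 settings of a strain share its replicate number, so strain and replicate cannot be told apart in this term. Cxcl1 had the lower signal with LPS in BL6 in each of the 3 settings: LPS signals in BALB/c were 7288, 6240 and 3503 without retinoid, with RA and with Ro, and 265, 197 and 192 in BL6 (adjusted p = 0.018). Its BL6 signals without LPS were at background in each setting, at 6.39, 8.50 and 8.54, so that no size of the strain difference is given. Itgb7, an integrin of gut homing, was lower in both strains, with LPS signals at or near background, from 1555 to 7.91 in BALB/c and from 660.3 to 48.1 in BL6 (adjusted p = 0.0403, with no size given). Pttg1, securin, was lower with LPS in BALB/c (3368 to 1739) and higher in BL6 (3083 to 7199) in the cultures without retinoid (BL6 minus BALB/c 2.41 ± 0.29, adjusted p = 0.018). The same was seen with RA and with Ro.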

How the data were processed

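The deposited values are signal intensities on a linear scale that the authors computed with MAS5, per the submitters' processing notes. No detection calls were used, and the number of arrays limits the precision. Of 45101 probe sets 64 are controls, 34945 name 1 gene (18193 genes), 932 name several and 9160 none; 34741 matched the gene table by identifier, with 0 symbols changed.

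Signals were tested as log2(value + 16), so fold changes of dim genes are understated. A probe set was kept when above its array's median on 2 or more of 12 arrays, and the kept probe set of highest mean stood for its gene. With limma 3.58.1 in R 4.3.3 (lmFit, eBayes with an intensity trend), 6 conditions and strain were fitted on 12 arrays, with 5 residual degrees of freedom. Benjamini-Hochberg adjustment ran over all 12429 genes, and calls needed an adjusted p under 0.05 at both scalings. Replicate number 1 is BALB/c and 2 is BL6 throughout, so strain was the block: deviations of same-numbered arrays correlated at 0.437 between control and LPS, and at 0.304 to 0.699 over the 15 pairs of conditions. On simulated data with 200 of 12429 genes changed, 70% of changes of 2 log2 units and 88% of those of 4 were called in this comparison, with 8 false calls. On the real arrays 29.8% of genes were called. How far the simulated figures hold with so many genes called, or with a scaling difference between arrays, was not tested. Nothing in the labels says that arrays come from separate animals, so p-values reflect array-to-array spread, which may be technical. With 1 array per strain and condition, that spread also holds any difference between the strains in their response.

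The comparison, its gene lists (33 of pathways and 9 of cell markers) and its tests were chosen with earlier results of these data known. Named genes are the 12 largest rises and 12 largest falls above background, 6 of each reaching background, up to 5 called members of each list by size and 2 uncalled ones by signal, 6 of smallest p in each direction for both differences between settings, 6 in each direction that differed most between strains, and a fixed set of receptor, cytokine and maturation genes. Ticam1, Myd88, Sigirr, Dusp3, Tgfb1, Cxcl3, Ifit1, Ifit3, Rsad2, Cd44, Tnfsf14, Hk2, Ldha, Pkm, Itgb7, Pttg1, Socs2, Socs4 and Socs6 fall outside this rule and were named after their values were seen. The same holds for Lcn2 and Irf8. Promoters are RefSeq sequences on GRCm38.p6, read from 250 bases before to 50 after a start. Figures were drawn with matplotlib 3.10.9, and tables were joined with pandas 2.3.3 in Python 3.11.15. Alternatives were another scaling, added constant, filter, choice of probe set, model without trend or strain, the 4 arrays alone, and each array left out.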

Additional observations from a re-analysis of the deposited data

Results flagged for a closer look

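The response to LPS differed between Ro cultures and cultures without retinoid in 77 genes by limma's test of the difference. As Ro minus no retinoid on the log2 scale, the genes of smallest p with a larger value in Ro were Apoc2 (5.45), Pdgfc (4.26), Rap1gap2 (3.01), Rassf3 (2.89), Glud1 (1.84) and Kcnk6 (1.78). Those with a smaller value were Hcar2 (-5.52), Hspa1b (-5.03), Adm (-4.71), G530011O06Rik (-4.47), Ctnnd2 (-3.87) and C1qa (-3.45). For Pdgfc, Hspa1b, Adm and Ctnnd2 a group lay at background, so the size depends on the added constant of 16.

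The response also differed between the strains over all 12 arrays in 3 genes, where strain cannot be told apart from replicate number. As BL6 minus BALB/c, the difference was -3.47 for Cxcl1, 2.59 for Itgb7 and 2.41 for Pttg1. For Cxcl1 and Itgb7 signals at background entered the difference, so its size depends on the added constant.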

How the results depend on the processing

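The 989 genes higher with LPS became 2027 after quantile normalisation alone, 3137 with median centring, 1995 when every kept probe set was tested and 1818 with all probe sets and no filter, an alternative chosen after seeing the data. The 2709 lower genes became 4686 at the deposited scaling alone, and 5496 and 4831 in both probe set settings, where more features were tested. Without the replicate block, which is strain, 657 were higher and 1745 lower. Leaving out 1 array gave 642 to 711 higher and 1451 to 2145 lower. An added constant of 1 or 64, no filter, a mean signal of at least 100, no intensity trend and the 4 arrays alone gave 855 to 1058 higher and 2315 to 2664 lower.

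For the difference between Ro cultures and cultures without retinoid, 30 larger and 47 smaller values became 65 and 106 after quantile normalisation alone, 15 and 25 with an added constant of 1, 14 and 27 with no filter, and 3 and 8 without the replicate block. Leaving out 1 array gave 1 to 61 larger and 1 to 61 smaller. For the RA difference the count of 0 became 1 without RA replicate 2. The cause of these shifts was not tested.

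The settings were also run for 341 genes named in the text or by the rule, 19 of them outside it and Lcn2 and Irf8 not included. None of the 240 that were called changed direction. Without the replicate block 40 lost their call, and 51 lost it when some 1 of the 4 arrays was left out. Single arrays per strain and condition, and signals near background, limit the precision.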
